A study of Homo sapiens with 22 samples.

Results

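The genes described here encode the nuclear subunits of mitochondrial respiratory complexes I to IV and of the ATP synthase, complex V. They were taken by symbol: NDUFA, NDUFB, NDUFC, NDUFS and NDUFV genes with a number, SDHA to SDHD, every UQCR gene, COX4 to COX8 genes and every ATP5 gene, leaving out NDUFA4L2 and unnamed loci. This gave 88 of the 25343 genes listed in each library, with 36 in complex I, 4 in complex II, 10 in complex III, 18 in complex IV and 20 in complex V. Of these, 74 are subunit genes of the standard complexes and 6 are tissue isoforms. A further 4 are near-identical copies or pseudogenes, 3 are associated factors and 1 is a readthrough transcript. Counts of called genes by complex include all of these where they were tested. NDUFA4 was counted under complex IV, where its protein is now placed.

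Messenger RNA was sequenced in cultured human renal carcinoma cells in 7 groups of 22 libraries in all. In 786-M1A cells expressing the CRISPRi machinery, which represses transcription where a guide RNA places it, there were 4 libraries with guide iMAE-1.1, another 4 with iMAE-1.2, and 2 with iMAE-126. A non-targeting guide, here SC, gave 6 libraries in the same cells. The other groups were OS-LM1 cells, untreated 786-M1A cells and untreated 786-O cells, with 2 libraries each. 786-O is a clear cell carcinoma line without functional VHL, 786-M1A is a metastatic derivative of it, and OS-LM1 is a metastatic derivative of OS-RC-2. All were grown in the same serum-containing medium and harvested before confluence. The labels give neither the targets of the guides nor the CRISPRi vector. They do not say whether replicates came from separate cultures, so p-values measure only how far these libraries spread, which may be technical.

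Complex I takes electrons from NADH and complex II takes them from succinate, and complex II is at the same time an enzyme of the tricarboxylic acid (TCA) cycle. Both pass them through ubiquinone to complex III, which hands them through cytochrome c to complex IV, cytochrome c oxidase, where oxygen is reduced. Complexes I, III and IV pump protons, and the ATP synthase uses the gradient to make ATP. Each complex except complex II also contains subunits encoded in mitochondrial DNA, which are not analysed here. Clear cell renal carcinomas are known for low respiration and for a hypoxia-type programme driven by HIF factors. In bulk RNA, a change in the share of cells and a change in RNA per cell cannot be told apart.

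Values are given on 2 scales. TPM is per transcript length and was used to compare genes or sum complexes. CPM, counts per 1000000 with library scaling, was used to compare groups for 1 gene. Fold changes are log2 values with their standard error (SE). A gene was called where its edgeR quasi-likelihood p, adjusted by Benjamini-Hochberg over all genes tested, was below 0.05.

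Library totals, in units of 1000000 counts, were 11.8 to 22.1 in the iMAE-1.1 group, 9.06 to 23.7 in the iMAE-1.2 group, 19.9 to 36.2 in iMAE-126, 10.5 to 24.4 in SC, 15.6 to 25.8 in OS-LM1, 49.3 to 52.7 in 786-M1A and 39.7 to 41.8 in 786-O. The renal epithelial factor PAX8 was present in 22 of 22 libraries at 87.1 to 262 TPM, and leukocyte markers summed to at most 1.45 TPM. CA9, a clear cell carcinoma marker, was at 0 in 14 libraries. The libraries differed in the length of the transcripts they counted. The count-weighted mean gene length, computed without the 88 genes, was 3944 to 3996 bases in 786-M1A and 3926 to 3932 in 786-O. It was lower in OS-LM1, at 3410 to 3634, and in the CRISPRi groups, at 3319 to 3396 for iMAE-1.1, 3318 to 3381 for iMAE-1.2, 3547 to 3593 in iMAE-126 and 3283 to 3733 in SC. SC libraries 1 and 2 and both iMAE-126 libraries lay above 3480 bases and are called the long set. SC libraries 3 to 6, with every library of guides iMAE-1.1 or iMAE-1.2, lay below it and are called the short set. Length matters here because respiratory transcripts are short: the 74 subunit genes had a median of 826 bases and 62.2% were under 1000 bases, against 7.62% of the 16354 genes tested between the lines.

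Respiratory promoters are known as binding regions of NRF1, of ETS factors such as GABPA and of YY1. Promoters from 250 bases before to 50 after the transcription start (RefSeq, GRCh38.p14) were found for 68 of the 88 genes, among them 62 subunit genes. The NRF1 motif (GCGCA, any 1 base, then GCGC), on either strand, was in 15 of the 62 (24.19%), against 6.285% of all 27305 promoters. It was in 6 of 31 promoters of complex I, 2 of 3 of complex II, 4 of 7 of complex III, 0 of 10 of complex IV and 3 of 11 of complex V. The ETS motif CCGGAAG was in 19 of 62 (30.65%), against 10.67% of all promoters. The YY1 motif ATGGCGG was also in 19 of 62 (30.65%), against 5.721% of all, and 13 of those 19 belonged to complex I. Matches of different motifs did not overlap in the subunit promoters. A match is a string in the window and says nothing of binding, and a missing match says only that these letters are not in this window.

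Promoters of 3 genes to which the results return are shown, 5′ to 3′ on the strand of the gene, with motif matches in capitals. NDUFA3 (chr19:54102605-54102904, plus strand) had the widest range between groups among subunit genes and holds 2 NRF1 matches, starting 170 and 73 bases before the start site. COX7C (chr5:86617691-86617990, plus strand) had the largest called change of complex IV between the related lines and holds none of the 3 motifs. NDUFS1 (chr2:206159395-206159694, minus strand) was lower in OS-LM1 and in SC and holds 1 ETS and 1 YY1 match.
NDUFA3 promoter: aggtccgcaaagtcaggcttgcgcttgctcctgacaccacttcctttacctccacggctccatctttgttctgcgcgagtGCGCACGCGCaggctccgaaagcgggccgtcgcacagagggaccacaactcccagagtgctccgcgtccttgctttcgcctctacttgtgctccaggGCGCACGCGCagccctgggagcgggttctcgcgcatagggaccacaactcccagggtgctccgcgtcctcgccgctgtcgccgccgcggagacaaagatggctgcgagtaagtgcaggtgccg
COX7C promoter: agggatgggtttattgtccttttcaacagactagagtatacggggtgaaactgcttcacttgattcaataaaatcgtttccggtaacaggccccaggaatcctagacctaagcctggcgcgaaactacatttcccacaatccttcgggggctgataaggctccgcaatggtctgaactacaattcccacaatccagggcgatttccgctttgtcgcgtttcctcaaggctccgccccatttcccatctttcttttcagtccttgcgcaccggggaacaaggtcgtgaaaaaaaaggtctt
NDUFS1 promoter: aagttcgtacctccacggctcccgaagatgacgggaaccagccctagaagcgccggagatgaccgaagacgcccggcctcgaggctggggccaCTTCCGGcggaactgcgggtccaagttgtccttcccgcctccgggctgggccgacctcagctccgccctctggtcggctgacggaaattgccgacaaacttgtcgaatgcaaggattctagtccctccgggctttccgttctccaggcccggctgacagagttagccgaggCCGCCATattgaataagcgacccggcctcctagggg

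Per length, the summed level was highest for complex I or V and lowest for complex II in each of the 7 groups, and in OS-LM1 complex IV was close to both. Complex I subunit genes summed to 6416 TPM with guide iMAE-1.1, 6350 with iMAE-1.2, 6985 in iMAE-126, 6535 in SC, 5709 in OS-LM1, 5182 in 786-M1A and 5781 in 786-O. Complex IV varied more between lines. It summed to 5057 and 6119 TPM in the OS-LM1 libraries, against 2786 and 2782 in 786-M1A and 3588 and 3449 in 786-O, with no overlap between these 3 groups. Complex II summed to 483 TPM in each of SC libraries 1 and 2 and to 361 to 413 in SC libraries 3 to 6, so that the library sets did not overlap within 1 group. SC averaged 418 ± 54.5 TPM (SD, n = 6) for complex II, and 786-M1A averaged 503 ± 1.80 (SD, n = 2). TPM does not take out the difference in transcript length between libraries. On log2(TPM + 1), the change of the 74 subunit genes was still related to log10 transcript length. For OS-LM1 over 786-M1A r was −0.45, and for SC over 786-M1A it was −0.64. How much of the differences in these sums goes with length was not tested.

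**Figure D1:**
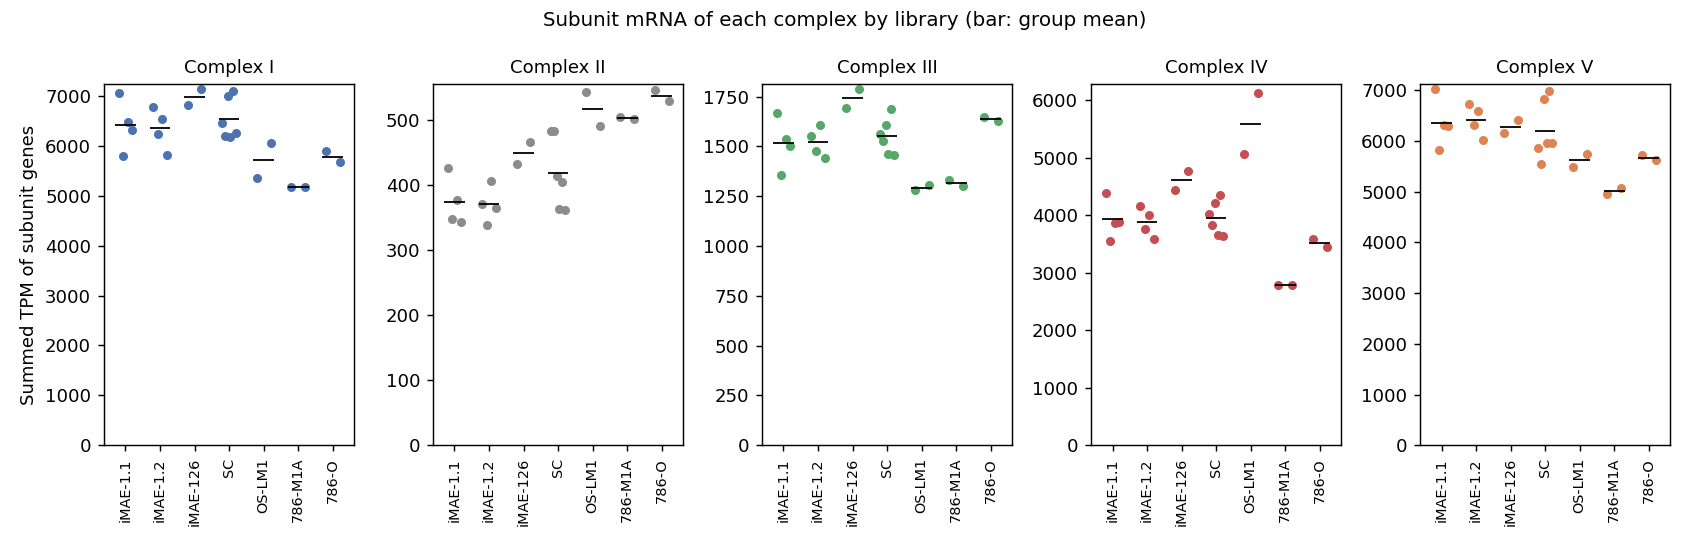
Summed TPM of the subunit genes of each complex, 1 panel per complex and 1 point per library, with a bar at each group mean. Complex IV in OS-LM1 (5057 and 6119 TPM) lies above 786-M1A (2786 and 2782) and 786-O (3588 and 3449), while the complex II means lie between 503 and 537 TPM in the 3 lines. These sums carry no length offset.

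Isoforms of restricted tissues were close to absent. COX4I2, the hypoxia-linked and lung form of COX4, and COX6A2, the heart and muscle form of COX6A, had 0 counts in 22 libraries. COX7B2 had 1 count and COX8C 4 counts over all libraries, and COX7A1, the muscle form of COX7A, had 51 counts and never exceeded 0.75 TPM. The copy ATP5EP2 was the sixth gene under 1 TPM in every group mean. COX6B2, the testis form of COX6B, reached 5.44 TPM in 1 library and had 661 counts in all. The 3 genes ATP5G1, ATP5G2 and ATP5G3 encode the same c subunit of the ATP synthase rotor, and ATP5G3 gave 12.3% of their summed TPM with guide iMAE-1.1, 12.4% with iMAE-1.2, 14.2% in iMAE-126, 14.1% in SC, 12.6% in OS-LM1, 17.0% in 786-M1A and 21.9% in 786-O. Within SC the ATP5G3 share was 15.0% and 15.7% in libraries 1 and 2, of the long set, against 12.9% to 14.2% in libraries 3 to 6. How much of the differences in this share between groups goes with transcript length was not tested. The sum of the 3 genes was 890 TPM in OS-LM1, 545 in 786-M1A and 631 in 786-O.

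In the fit of all 6 libraries of the lines, few respiratory genes were called between 786-M1A and its parental line 786-O. Most of those called were lower in 786-M1A. Of 81 genes tested, 2 rose and 12 fell, which is 14 calls where 31.0% of all 16354 genes were called (14.7% higher and 16.3% lower). The median log2 fold change was −0.11, against −0.02 for all genes. By complex, 1 rose and 5 fell of 36 in complex I, none of 4 was called in complex II, 1 of 9 fell in complex III, 1 rose and 5 fell of 13 in complex IV, and 1 of 19 fell in complex V. Libraries of the groups did not overlap for 72.84% of the 81 genes, close to 75.2% of all genes. Fitted alone, these groups gave 47 calls, where 56.4% of all genes were called, so the low count depends on the fit.

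Complex IV had the lowest median among the complexes, −0.36. COX7C, a small membrane subunit, had 38.7 and 40.2 CPM in 786-M1A, against 63.8 and 63.4 in 786-O. It fell by 0.69 on the log2 scale (SE 0.11, adjusted p = 0.0024), with no overlap. COX7B, another small membrane subunit, had 46.0 and 49.7 CPM in 786-M1A, against 65.1 and 68.7 in 786-O, and fell by 0.48 (SE 0.11, adjusted p = 0.0104). COX5A, which lies on the matrix side, had 59.8 and 61.0 CPM in 786-M1A, against 79.3 and 76.7 in 786-O, and fell by 0.37 (SE 0.10, adjusted p = 0.0239). COX7A2 fell by 0.36 and NDUFA4 by 0.39. Each of these genes was lower in both 786-M1A libraries than in both 786-O libraries. COX4I1, the large regulatory subunit, was not called, with a log2 fold change of −0.05 and adjusted p = 0.806. COX7A2L, a factor that joins complexes III and IV into supercomplexes, was among the 2 genes that rose, with 91.9 and 94.0 CPM in 786-M1A, against 75.2 and 70.1 in 786-O (log2 fold change 0.36, SE 0.10, adjusted p = 0.0282).

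**Figure D2:**
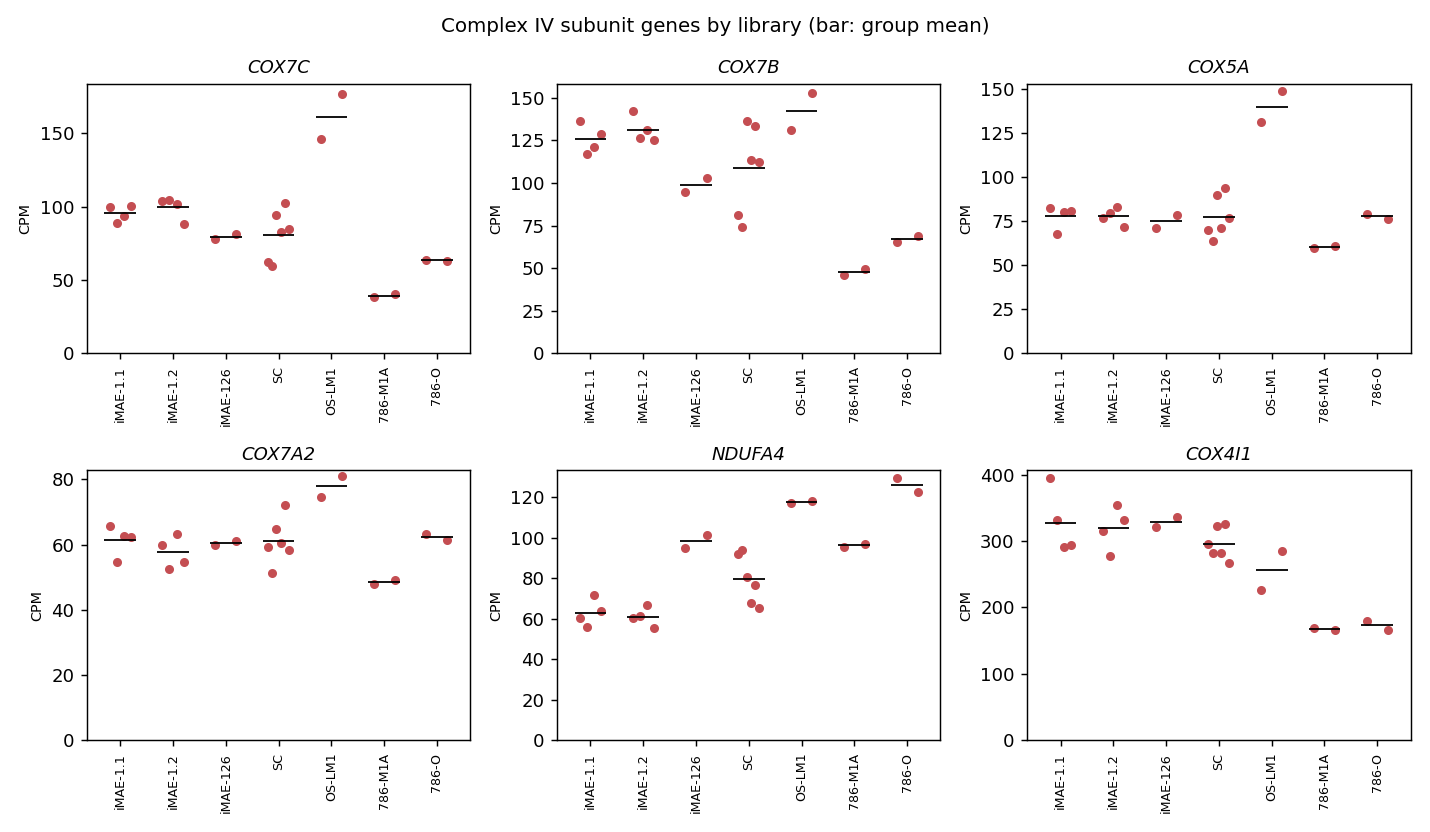
CPM of 6 complex IV genes, 1 point per library and a bar at each group mean. COX7C, COX7B, COX5A, COX7A2 and NDUFA4 are lower in both 786-M1A libraries than in both 786-O libraries, and COX7C is highest in OS-LM1 (146 and 177 CPM).

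In the other complexes the calls were scattered. NDUFA3, an accessory subunit in the membrane arm of complex I, had 8.03 and 7.48 CPM in 786-M1A, against 12.2 and 12.9 in 786-O, and fell by 0.69 (SE 0.16, adjusted p = 0.0136). NDUFA6, an accessory subunit where the matrix arm meets the membrane arm, moved the other way, with 59.3 and 61.7 CPM in 786-M1A, against 43.7 and 40.6 in 786-O (log2 fold change 0.52, SE 0.11, adjusted p = 0.00765). The core subunits NDUFS1 (log2 fold change −0.00), which carries iron-sulfur clusters, and NDUFV1 (−0.05), which binds NADH, were not called. UQCRH, the hinge protein of complex III beside cytochrome c1, had 121 and 122 CPM in 786-M1A, against 160 and 162 in 786-O, and fell by 0.41 (SE 0.09, adjusted p = 0.0127). ATP5G3 had 115 and 114 CPM in 786-M1A, against 165 and 159 in 786-O, and fell by 0.50 (SE 0.10, adjusted p = 0.00551). Its sister genes ATP5G1 (−0.06) and ATP5G2 (−0.04) were not called, nor were ATP5A1 (−0.17) and ATP5B (0.00) of the catalytic head. The complex II genes SDHA (−0.12), SDHB (0.14), SDHC (−0.10) and SDHD (0.03) were not called. Nor were UQCRC1 (−0.24) and UQCRFS1 (−0.26), the core and iron-sulfur subunits of complex III. A fit of these 2 groups alone called 47 of the respiratory genes, 11 higher and 36 lower, where 56.4% of all genes were called. Leaving out any 1 of the 4 libraries left 1 library in that group, and most calls were lost. COX7C was then at −0.71 to −0.66.

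Among genes that regulate respiratory genes, 2 of 14 rose and 2 fell, where 31.0% of all genes were called. The 2 that fell are named here. PPARGC1A, the coactivator PGC-1α known for raising mitochondrial gene transcription, had 0.105 and 0.294 CPM in 786-M1A, against 13.7 and 14.9 in 786-O. These levels come from 18 counts in 786-M1A and 1146 in 786-O. It fell by 6.16 on the log2 scale (SE 0.33, adjusted p = 9.42e-06), with leave-one-out values of −7.03 to −5.58. PPARGC1B, its relative, had 1.47 and 1.42 CPM in 786-M1A, against 3.19 and 3.53 in 786-O, and fell by 1.22 (SE 0.23, adjusted p = 0.00511). The SC cells, derived from 786-M1A, were also low in PPARGC1A, with 25 counts over 6 libraries.

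Other mitochondrial gene lists had calls in a share of genes near or under the 31.0% of all genes called in this comparison. Of 13 TCA cycle genes 3 rose and none fell, with IDH3G, a subunit of NAD-dependent isocitrate dehydrogenase, at 0.61 (adjusted p = 0.00581) and the malate dehydrogenase MDH2 at 0.48 (adjusted p = 0.0120). Assembly factors of complexes II to IV were split, with 3 of 29 higher and 6 lower. Among them BCS1L, which inserts the iron-sulfur protein into complex III, rose by 0.54, and COA5 and PET100, both needed to build complex IV, fell by 0.62 and 0.46. Of 13 complex I assembly factors NDUFAF6 rose by 0.46 and NDUFAF1 fell by 0.50. TMEM70, an ATP synthase assembly factor, rose by 0.53. Of 77 mitochondrial ribosomal protein genes 10 rose and 9 fell, and of 82 cytosolic ribosomal protein genes 3 rose and 6 fell.

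OS-LM1, which has another parental line, differed from 786-M1A at most respiratory genes, as it did at most genes. Of the 81 genes 41 rose and 16 fell, where 68.7% of all genes were called (34.4% higher and 34.3% lower). The median log2 fold change was 0.32, against 0.04 for all genes. Complex IV had 10 of 13 higher and 1 lower, with a median of 0.99. Complex I had 16 of 36 higher and 9 lower, complex III 2 of 9 higher and 3 lower, complex V 11 of 19 higher and 2 lower, and complex II 2 of 4 higher and 1 lower. The rises in complex V include the readthrough ATP5J2-PTCD1 and the factors ATP5S and ATP5SL. In complex IV the tissue isoform COX6B2 is among the rises, and the factor COX7A2L is the fall. Without 786-M1A replicate 2, which leaves 1 library in that group, fewer genes were called and the median was 0.32.

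NDUFA3 had 38.6 and 54.8 CPM in OS-LM1, against 8.03 and 7.48 in 786-M1A (log2 fold change 2.50, SE 0.17, adjusted p = 6.22e-06). COX7C had 146 and 177 CPM in OS-LM1, against 38.7 and 40.2 in 786-M1A (1.95, SE 0.11, adjusted p = 3.22e-06). COX6B1, a subunit on the side of the intermembrane space, had 172 and 245 CPM in OS-LM1, against 62.1 and 58.8 in 786-M1A (1.70, SE 0.16, adjusted p = 3.62e-05). No library of OS-LM1 overlapped one of 786-M1A for these genes. COX6A1 rose by 1.53, COX7B by 1.48 and COX5A by 1.13, while COX4I1 rose by 0.53 and COX7A2 by 0.60. COX6B2 rose by 3.39 (SE 0.55) but stayed low, with 2.23 and 4.75 CPM in OS-LM1, against 0.356 and 0.249 in 786-M1A. NDUFA4 was not called at 0.20 (adjusted p = 0.0900). Within complex III, UQCR10, a small subunit near cytochrome c1, had 112 and 137 CPM in OS-LM1, against 62.5 and 56.6 in 786-M1A (0.97, SE 0.12, adjusted p = 0.000154). All 3 c-subunit genes rose, ATP5G2 by 0.88, ATP5G1 by 0.86 and ATP5G3 by 0.35.

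The genes that fell in OS-LM1 include large subunits of complexes I and III and of the catalytic head of the ATP synthase. NDUFS1, the largest subunit of complex I and the carrier of several iron-sulfur clusters, had 47.0 and 33.3 CPM in OS-LM1, against 133 and 136 in 786-M1A, and fell by 1.82 (SE 0.16, adjusted p = 3.2e-05). NDUFB9 had 63.0 and 69.0 CPM in OS-LM1, against 134 and 133 in 786-M1A, and fell (SE 0.10, adjusted p = 3.49e-05). NDUFS6, a matrix-arm accessory subunit, had 42.1 and 42.5 CPM in OS-LM1, against 84.9 and 84.0 in 786-M1A, and fell by 1.08 (SE 0.10). These groups also did not overlap. UQCRC2, a core protein of complex III, had 80.8 and 59.5 CPM in OS-LM1, against 122 and 115 in 786-M1A, and fell by 0.84 (SE 0.15, adjusted p = 0.00147). ATP5A1, the α subunit of the catalytic head, had 276 and 220 CPM in OS-LM1, against 334 and 340 in 786-M1A, and fell by 0.52 (SE 0.13, adjusted p = 0.00794). ATP5B, the β subunit, fell by 0.34. Within complex II, SDHA, the flavoprotein that oxidises succinate, rose by 0.35, the membrane anchor SDHD rose by 0.28, the iron-sulfur subunit SDHB fell by 0.36, and SDHC was not called at −0.00. NDUFV1 (−0.04), UQCRC1 (0.12) and UQCRFS1 (0.28) were not called.

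OS-LM1 libraries counted shorter transcripts than 786-M1A libraries, and the log2 fold change of the 74 subunit genes was negatively related to the logarithm of transcript length (r = −0.46, a description across genes that share libraries). An alternative fit carried an offset for each library's own relation of count to length, taken from all other genes. It called 32 genes higher and 24 lower, where 69.7% of all genes were called, with a median of 0.10. Complex IV had 9 of 13 higher and 2 lower in that fit (median 0.50), and complex I had 11 higher and 12 lower. Under the offset NDUFA3 was at 1.88, COX7C at 1.40, NDUFS1 at −1.63 and NDUFB9 at −1.45.

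Set against 786-O, the same OS-LM1 libraries had 38 of 81 genes higher and 18 lower, where 63.6% of all genes were called (30.4% higher and 33.3% lower). The 2 OS-LM1 comparisons share those libraries, so their values stand side by side only. NDUFA3 was at 1.80, COX6B1 at 1.47, COX7C at 1.26, NDUFS1 at −1.82, UQCRH at −0.78 and ATP5A1 at −0.70 against 786-O. SDHD, at 0.31, was the only complex II gene called. The length offset gave 26 higher and 30 lower, where 64.7% of all genes were called, and the median log2 fold change was −0.09. Without 786-O replicate 2, which leaves 1 library in that group, fewer genes were called. The median log2 fold change without an offset was then 0.170, against 0.166 with all libraries.

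Beside the 88 genes, NDUFA4L2, the HIF-induced relative of NDUFA4 known from clear cell carcinoma, was high in OS-LM1. It had 63.2 and 102 CPM in OS-LM1, against 0.377 and 0.0678 in 786-M1A and 0.103 and 0.0968 in 786-O. Its log2 fold change over 786-M1A was 8.39 (SE 0.41, adjusted p = 1.35e-06), with leave-one-out values of 7.65 to 10.1, from 3221 counts in OS-LM1 and 21 in 786-M1A. Of 16 electron carriers not among the 88 genes 10 were lower in OS-LM1 than in 786-M1A and 2 higher, beside 34.3% of all genes lower and 34.4% higher, the shares against which the lists that follow are also read. CYC1, the cytochrome c1 of complex III, had 61.8 and 65.0 CPM in OS-LM1, against 162 and 150 in 786-M1A, and fell by 1.38. ETFDH, which feeds electrons from fatty acid oxidation to ubiquinone, fell by 1.51. Regulators had 8 of 14 lower and 4 higher. POLRMT, the mitochondrial RNA polymerase, fell by 1.53, and PPARGC1A rose by 4.88, with 7.09 and 5.25 CPM in OS-LM1, against 0.105 and 0.294 in 786-M1A. TIMMDC1, a complex I assembly factor, fell by 1.42 and TMEM70 by 1.37. Of 13 TCA cycle genes 1 rose and 4 fell. Of 82 cytosolic ribosomal protein genes, whose transcripts are also short, 44 rose and 13 fell.

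SC cells carry a non-targeting guide, so their comparison with untreated 786-M1A is one of 2 control states. Respiratory genes differed widely between them. Of 81 genes 49 rose and 5 fell, where 53.0% of all 14769 genes were called (27.8% higher and 25.3% lower), and the median was 0.59, against 0.07 for all genes. By complex, 23 of 36 rose and 2 fell in complex I, 1 of 4 rose in complex II, 6 of 9 rose and 1 fell in complex III, 9 of 13 rose in complex IV, and 10 of 19 rose and 2 fell in complex V.

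The direction followed transcript length. Of 48 members under 1000 bases 39 rose and none fell, and of 33 longer members 10 rose and 5 fell. The relation between log2 fold change and log10 length over the 74 subunit genes had r = −0.64 and rho = −0.65, a description across genes of the same libraries. All genes showed it: of 374 genes under 700 bases 208 rose and 9 fell, and of genes of 4000 bases or more 763 rose and 1945 fell. Every SC library had a lower mean gene length than every 786-M1A library, so the CRISPRi cells and this property of the libraries cannot be told apart.

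**Figure D3:**
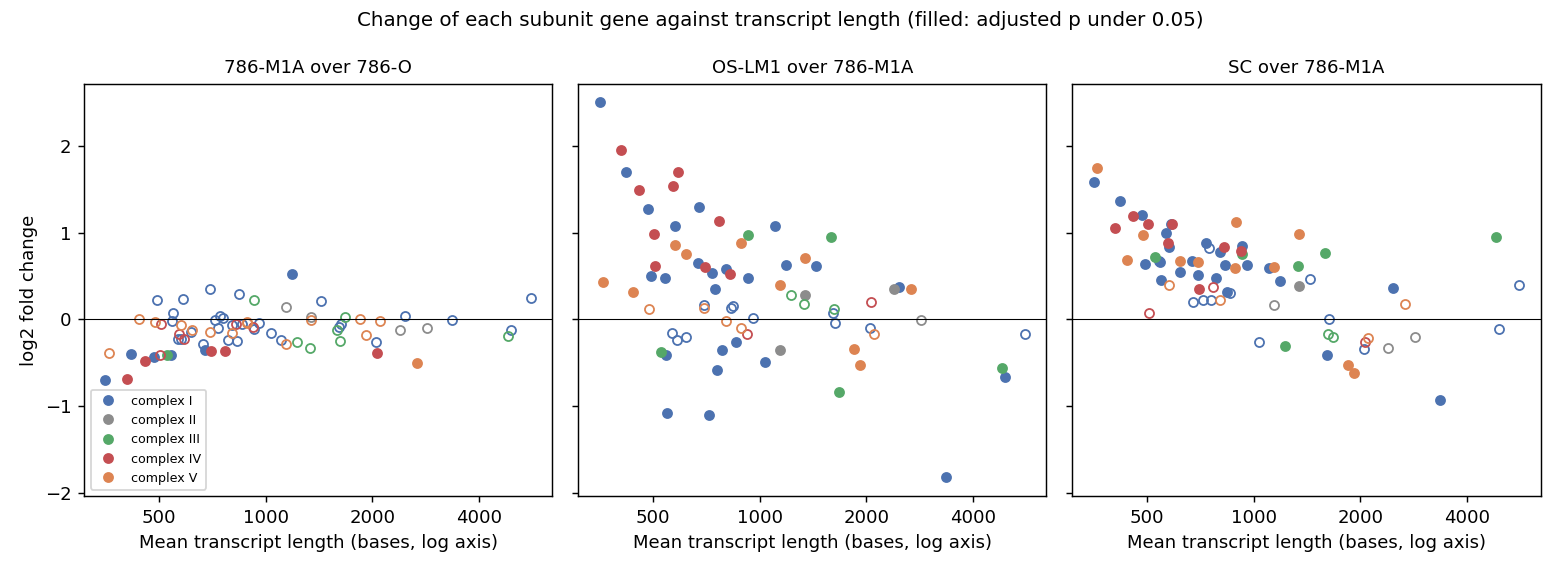
Log2 fold change of each gene against its transcript length (log axis) for 786-M1A over 786-O, OS-LM1 over 786-M1A and SC over 786-M1A, with filled points for adjusted p under 0.05. Short genes lie higher in the OS-LM1 (r = −0.46) and SC (r = −0.64) comparisons, and not in 786-M1A over 786-O (r = 0.24).

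COX4I1 had a lowest, median and highest value of 267, 289 and 326 CPM in SC, against 169 and 166 in 786-M1A (log2 fold change 0.83, SE 0.11, adjusted p = 0.00122). ATP5I, the small e subunit of the ATP synthase, had 68.4, 149 and 181 CPM in SC, against 38.7 and 41.5 in 786-M1A (1.74, SE 0.41, adjusted p = 0.00852). NDUFA3 had 12.8, 25.3 and 29.1 CPM in SC, against 8.03 and 7.48 in 786-M1A (1.58, SE 0.32, adjusted p = 0.00494). All 6 SC libraries exceeded both 786-M1A libraries for these genes, and the SC values were widely spread for ATP5I and NDUFA3. COX7C rose by 1.05, UQCRH by 0.71, ATP5G2 by 0.59, SDHD by 0.39 and COX7A2 by 0.35. UQCRB rose by 0.94, but its pseudogene UQCRBP1 may share its reads.

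All 5 genes that fell have transcripts over 1000 bases. NDUFS1 had 60.4, 66.9 and 82.6 CPM in SC, against 133 and 136 in 786-M1A, and fell by 0.93 (SE 0.13, adjusted p = 0.00173). ATP5B had 335, 360 and 446 CPM in SC, against 548 and 544 in 786-M1A, and fell by 0.52 (SE 0.12, adjusted p = 0.0085). ATP5A1 had 181, 197 and 291 CPM in SC, against 334 and 340 in 786-M1A, and fell by 0.61 (SE 0.18, adjusted p = 0.0219). In each case the lowest 786-M1A value lay above the highest SC value. The Rieske protein UQCRFS1 fell by 0.30 and the complex I subunit NDUFA9 by 0.41. SDHA (−0.33), SDHB (0.16), SDHC (−0.20), NDUFV1 (0.01), UQCRC1 (−0.16), NDUFA4 (−0.26), ATP5G1 (0.40) and ATP5G3 (0.17) were not called.

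With the length offset 25 genes were higher and 19 lower, where 49.4% of all genes were called, and the median was 0.07. NDUFS1 was at −0.84 and COX4I1 at 0.32 under the offset. COX7A2, which rose in the fit without an offset, was lower with it, at −0.24 (adjusted p = 0.0398). Complex IV had 8 higher and 2 lower with the offset. The SC long set alone gave 46 higher and 7 lower (median 0.29), where 51.2% of all genes were called. The short set alone gave 60 higher and 14 lower (median 0.60), where 79.1% were called. Without 786-M1A replicate 1 the median was 0.585, and without replicate 2 it was 0.57. Each of these fits leaves 1 library in that group, and fewer genes were called.

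**Figure D4:**
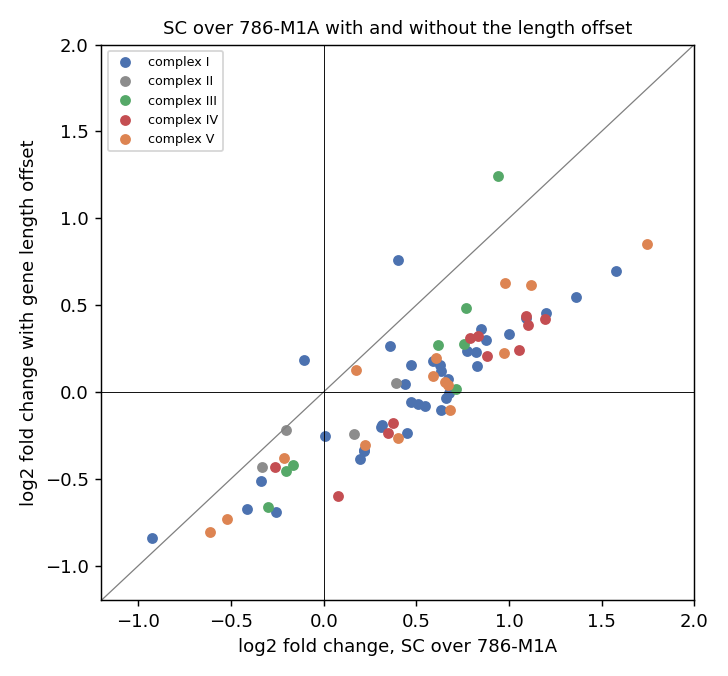
Log2 fold change of SC over 786-M1A for each gene without an offset (horizontal) and with the gene length offset (vertical). Most points lie under the diagonal, and the median moves to 0.07 with the offset, against 0.59 without.

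Library sets differed within SC itself. For 55 of the 74 subunit genes the 2 long-set and 4 short-set SC libraries did not overlap in CPM, 44 lower and 11 higher in the long set, where 61.4% of all genes did not overlap. SDHA had 226 and 228 CPM in SC libraries 1 and 2, against 144 to 155 in libraries 3 to 6. For ATP5A1 the long set was 1.45 times the short set.

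Other lists moved with the same comparison. Of 82 cytosolic ribosomal protein genes 59 rose and 1 fell in SC against 786-M1A, with a median of 0.53, and 17 rose and 18 fell with the length offset. Of 13 TCA cycle genes 9 fell and 1 rose, beside 25.3% of all genes lower and 27.8% higher. The succinyl-CoA ligase subunit SUCLA2 was at −0.59 and IDH3G at 0.33. ATPIF1, the inhibitor of the ATP synthase, rose by 0.92, PET100 by 1.44 and NDUFAF3 by 0.89. LRPPRC, which stabilises mitochondrial messages, fell by 0.73. The values of these genes and of the TCA cycle genes carry no length offset, and how far they go with transcript length was not tested.

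The CRISPRi guides were each set against the same 6 SC libraries, and the count of respiratory genes called is read against the share of all genes called. For iMAE-1.1, 0 of 82 genes were called by edgeR, where 0.452% of all 15254 genes were. DESeq2, which called 2.85% of all genes, called 1, NDUFB9, an accessory subunit in the outer part of the membrane arm. It had 105 to 136 CPM in iMAE-1.1 and 136, 156 and 168 (lowest, median and highest) in SC, with a DESeq2 log2 fold change of −0.31 (adjusted p = 0.0442). With the library set as a term, edgeR again called 0, where 1.79% of all genes were called. In that fit 6 of the 82 genes had an unadjusted p under 0.05, beside 1995 of all 15254 genes. The median log2 fold change was 0.05 without and −0.04 with the set term.

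For iMAE-1.2, 0 of 82 genes were called by edgeR, where 0.721% of all genes were. DESeq2, which called 4.36% of all genes, called 3, each lower: NDUFA4 (−0.39), UQCRFS1 (−0.35) and NDUFB9 (−0.29). NDUFB9 had 132, 132, 131 and 109 CPM with guide iMAE-1.2, each under the lowest SC library at 136. With the library set as a term edgeR called 0, where 2.73% of all genes were called. In that fit 9 of the 82 genes had an unadjusted p under 0.05, beside 2321 of all 15254 genes. When the set term was joined with the length offset, 2.1% of all genes were called for iMAE-1.1 and 3.22% for iMAE-1.2. NDUFB9 was then called for both guides, at −0.29 for iMAE-1.1 (adjusted p = 0.0362) and −0.28 for iMAE-1.2 (adjusted p = 0.0356), beside NDUFB2 for iMAE-1.1.

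For iMAE-126, 1 of 82 genes rose and 2 fell, where 15.5% of all genes were called. COX8A, a small subunit of complex IV, had 131 and 127 CPM in iMAE-126, against 76.1, 90.9 and 115 (lowest, median and highest) in SC (0.48, SE 0.13, adjusted p = 0.0198). NDUFA5 had 68.8 and 72.1 CPM in iMAE-126, against 72.7, 116 and 131 in SC, and fell by 0.65 (SE 0.17, adjusted p = 0.0201). SDHD had 60.7 and 59.2 CPM in iMAE-126, against 66.6, 77.7 and 93.3 in SC, and fell by 0.39 (SE 0.12, adjusted p = 0.0416). None of these 3 groups of values overlapped SC, but both iMAE-126 libraries are of the long set, as only SC libraries 1 and 2 are. With the library set as a term the 3 genes were at 0.26 (adjusted p = 0.123), −0.31 (adjusted p = 0.151) and −0.18 (adjusted p = 0.264).

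With that term 12 other genes were called, all higher, where 16.7% of all genes were called. They were ATP5I, ATP5J2, COX5B, COX6A1, COX7B, COX7C, NDUFA1, NDUFB1, NDUFC1, NDUFS5, UQCRH and UQCRQ, with ATP5I at 0.51, NDUFA1 and NDUFB1 at 0.47, UQCRQ at 0.43 and COX7C at 0.38. Of these 12 genes 11 have transcripts under 1000 bases, and 1 has a longer transcript. The log2 fold changes of the 74 subunit genes had r = −0.60 with log10 length in that fit, against −0.17 once the length offset was added. With both, where 15.3% of all genes were called, UQCRQ was higher, and ATP5B, ATP5F1 and COX7A2L were lower. In the fit without a set term, leaving out 1 iMAE-126 library left 1 in that group, and the calls of that fit were lost. The median was then −0.007 or −0.045. More genes were called without SC replicate 1 or without SC replicate 2, and no share of all genes is given for those fits.

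Genes that work beside the complexes are given for iMAE-126 without and with the library set as a term, where 15.5% and 16.7% of all genes were called and 9.24% and 10.4% were lower. CYCS, the cytochrome c that carries electrons between complexes III and IV, had 160 and 156 CPM in iMAE-126, against 251 and 283 in SC libraries 1 and 2 and 371 to 447 in SC libraries 3 to 6. It fell by 1.19 (SE 0.17, adjusted p = 0.00111) and, with the set term, by 0.76 (adjusted p = 7.86e-05). GABPB1, the partner of the ETS factor GABPA, had 19.4 and 20.2 CPM in iMAE-126, against 29.3 and 26.7 in SC libraries 1 and 2 and 33.9 to 38.5 in libraries 3 to 6. It fell by 0.77 (adjusted p = 0.00223) and by 0.51 with the set term (adjusted p = 0.00269). No SC library was as low as either iMAE-126 library for these genes. Leaving out 1 library gave an adjusted p of at most 0.0435 for CYCS and at most 0.0552 for GABPB1. Of 14 regulators 3 fell and none rose without the term, and 4 fell and none rose with it. Of 13 TCA cycle genes 3 fell without the term and 4 with it, and none rose in either fit. IDH3A, the catalytic subunit of NAD-dependent isocitrate dehydrogenase, fell by 0.66 without the term and by 0.57 with it. Of 77 mitochondrial ribosomal protein genes 10 fell without the term and 4 with it, and none rose in either fit. These lists were not tested against each other or against all genes.

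**Figure D5:**
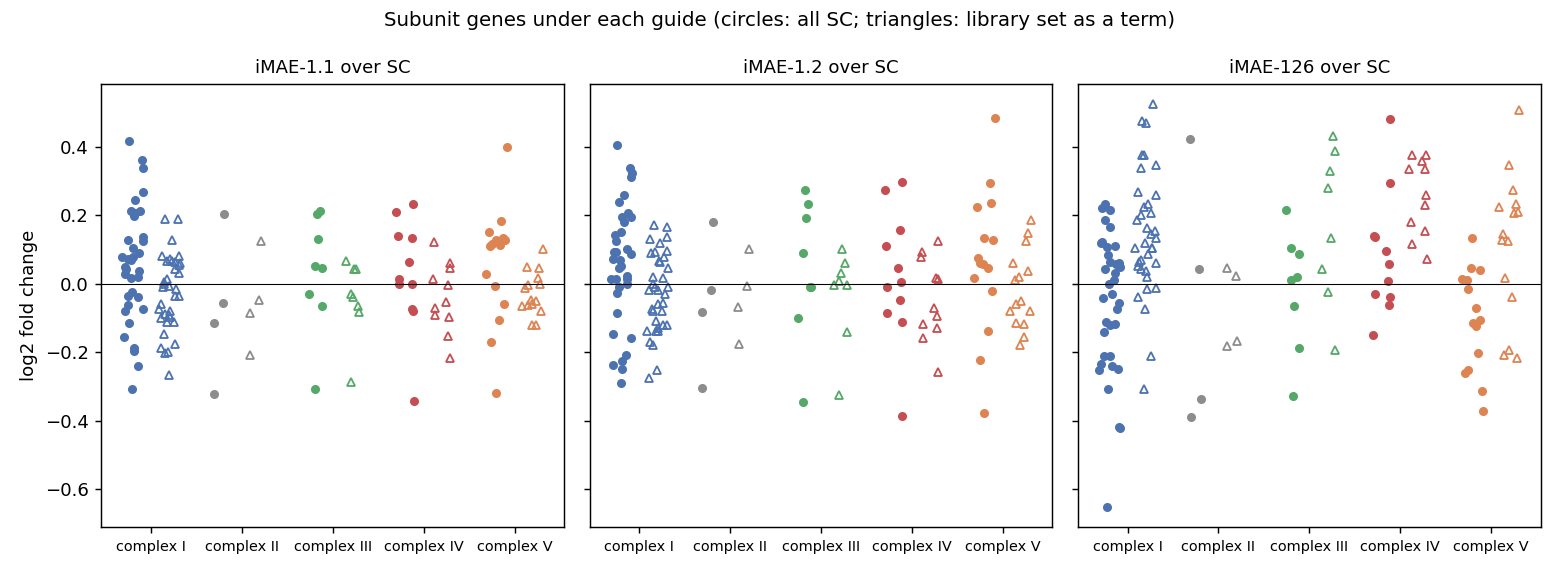
Log2 fold change over SC of each gene for the 3 guides, by complex, with circles for all SC libraries and triangles for the fit with library set as a term. The medians of iMAE-1.1 and of iMAE-1.2 are 0.05 with all SC libraries, and for iMAE-126 the set term moves the median to 0.15, against −0.03.

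Over all 7 groups the subunit genes differed in how much they varied. The median ratio of the highest to the lowest group mean CPM was 1.95. NDUFA3 varied most, 6.02-fold, followed by ATP5I at 4.65-fold and COX7C at 4.09-fold. NDUFV1, which binds NADH, varied least, 1.09-fold. OS-LM1 held the highest mean for 21 of the 74 subunit genes and the lowest for 17, and 786-M1A held the lowest for 33. These CPM means carry no length offset, and the 786-M1A libraries counted the longest transcripts of the 7 groups. How much of this variation goes with transcript length was not tested.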

How the data were processed

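Poly(A) RNA was sequenced with a stranded dUTP kit in 22 libraries, per the labels' protocols. The authors aligned with Bowtie2 and estimated expected counts and TPM per gene with RSEM on hg19, per the submitters' processing notes, with no strand option or version stated in those notes. These deposited expected counts were rounded to whole numbers. The TPM values deposited by the authors are relative to transcript length and were used for levels. RSEM divides reads among near-identical copies, so ATP5EP2, ATP5L2, UQCRBP1, UQCRHL and their parent genes are uncertain.

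Counts were tested with edgeR 4.0.16 (R 4.3.3): TMM factors, filterByExpr with a minimum count of 10, the robust quasi-likelihood test and Benjamini-Hochberg adjustment over all genes tested, called below 0.05. The 3 fits held the 6 libraries of the lines, the 8 of SC and 786-M1A, and the 16 CRISPRi libraries. The alternatives tried were limma 3.58.1 on log2(TPM + 1), DESeq2 1.42.0, RLE in place of TMM, a minimum count of 50 or none, a replicate block, a gene length offset, the compared groups alone, each SC library set alone, the library set as a term, and leaving out each replicate. The combined set and length fit and a crossed replicate block were added after the data were seen. The scripts were tested on simulated data. Tables and figures used Python 3.11.15, pandas 2.3.3, numpy 2.4.6 and matplotlib 3.10.9.

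The genes, the lists and the length offset were chosen with earlier results of these data known. Some genes were always named (such as NDUFS1, SDHA, COX4I1 and ATP5A1). Others were the largest called rise and fall per complex without overlap, and up to 2 per direction from each pathway list. Further genes, among them COX5A, COX7B, ATP5I, NDUFB9 in 2 of the guide comparisons and the 12 genes called for iMAE-126 with the set term, were named after their values were seen. Of 88 genes 81 passed the filter between the lines and in SC against 786-M1A, and 82 among the CRISPRi libraries. Whether the replicate numbers pair the samples was checked on deviations from group means. No clear pairing was seen, but with 2 libraries in a group this check cannot exclude it. Library totals of 9.06 to 52.7 (in units of 1000000 counts) set the precision.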

Additional observations from a re-analysis of the deposited data

Results flagged for a closer look

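Within the CRISPRi groups of 4 or 6 libraries, 5 of 105 groups of values held 1 library far from the others, and chance flags about 1 in 20 groups. In iMAE-1.1 replicate 1, ATP5G2 was at 176 CPM, against 142.9 to 147.1 in the other libraries of that group, and COX7A2L was at 92.15, against 80.41 to 82.02. In iMAE-1.2 replicate 3, SDHA was at 151.7 CPM, against 136.9 to 138.8, and UQCRC1 at 89.24, against 76.6 to 78.26. In iMAE-1.2 replicate 4, COX7C was lowest at 88.51 CPM, against 101.9 to 104.4. Both genes of iMAE-1.1 replicate 1 were high in that library, as both genes of iMAE-1.2 replicate 3 were. Their cause was not tested.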

How the results depend on the processing

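For 786-M1A against 786-O, 14 genes were called, against 26 with the length offset and 47 with these groups alone. Most of the 14 calls were lost when any 1 of their libraries was left out. Of the 14, 2 were higher and 12 lower. With RLE factors or DESeq2, 4 were higher and 11 lower, and without a filter on low counts 5 were higher and 10 lower. The length offset gave 3 higher and 23 lower, limma 1 and 16, and a minimum count of 50 gave 2 and 15. Leaving out 1 library gave 37 to 66 calls for OS-LM1 against 786-M1A, 34 to 65 for OS-LM1 against 786-O and 13 to 63 for SC against 786-M1A. For iMAE-1.1, DESeq2 called 1 and the set term with the length offset 2, and for iMAE-1.2 they called 3 and 1. For iMAE-126 the 3 calls became 1 with limma, 35 with the replicate block, 0 with these groups alone, 12 with the set term and 2 to 10 without 1 SC library. Shares of all genes are not given beside the counts in this paragraph, which are therefore not read as results about respiratory genes. A change of sign that was itself called was seen in 5 cases. With the length offset, SC against 786-M1A gave ATP5G1 −0.27, COX7A2 −0.24, NDUFV1 −0.25 and SDHB −0.24, and with the replicate block iMAE-126 gave ATP5A1 −0.18. The offset is built to remove the relation to length, and for the other changes the cause was not tested.

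Deviations from group means were only weakly related between libraries of the same replicate number. The correlation of deviations was 0.104 for 786-M1A and 786-O and −0.213 for OS-LM1 and 786-M1A. The replicate block called 11 genes for 786-M1A against 786-O, 55 for OS-LM1 against 786-M1A (57 with crossed numbers) and 54 for OS-LM1 against 786-O. It called 66 for SC against 786-M1A, where the median was 0.29, against 0.59 without the block. For iMAE-126 it called 31 higher and 4 lower, against 1 and 2 without the block. No share of all genes is given for the block, so these counts are not read as a result about respiratory genes. SC replicates 1 and 2 are of the long set, as both iMAE-126 libraries are. In these comparisons the block and the library set cannot be told apart.

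On limma's log2(TPM + 1) scale the median of all genes was −0.17 for SC against 786-M1A, against 0.07 in edgeR, and the median of the respiratory genes was 0.32, against 0.59. It called 36 of them higher and 11 lower there, against 49 and 5, and 29 higher and 23 lower for OS-LM1 against 786-O, against 38 and 18. For OS-LM1 against 786-O the median of the respiratory genes was 0.005, against 0.166 in edgeR. Over the genes named, 1900 values under an alternative stayed on their side of the threshold, 138 lost and 60 gained a call. Genes near 0 could also change sign without a call, as NDUFV1 did in SC against 786-M1A (−0.06 to 0.07 when 1 library was left out).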
